A study of Mus musculus with 10 samples.

Results

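The TRIM (tripartite motif) genes encode a large family of ubiquitin ligases, and their expression was examined in the brains of mice given a skin-inflaming cream. All genes whose symbol is Trim followed by a number and at most 1 letter were taken, which gave 66 genes of the 21335 named on the array. Each gene was read from 1 probeset, a set of probes summarised to 1 value, a probeset of its own where it had any, and of several the brightest on average. A total of 58 genes had a probeset of their own, and 8 genes (Trim5, Trim17, Trim30b, Trim43a, Trim43b, Trim43c, Trim60 and Trim61) could be read only from a probeset that also names another gene, so that 63 probesets stood for the 66 genes. The members were taken by name and not by any measured value, though with earlier results of these data known.

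Whole brains came from female wild-type C57BL/6 mice of 6 to 8 weeks, which were perfused before the brains were taken. The Aldara group (n = 5) received 80 mg of Aldara, a cream with 5% imiquimod, which is a ligand of Toll-like receptor 7, on the shaved skin of the back every 24 h for 5 applications. The control group (n = 5) received an aqueous cream on the same schedule, so that imiquimod and the other ingredients of Aldara were not separated. Brains were taken 24 h after the last application, and the labelled cDNA made from the RNA of each was hybridised to 1 Affymetrix GeneChip Mouse Gene 1.0 ST array. Arrays correlated at 0.9952 to 0.9987 within groups and at 0.9805 to 0.9883 between groups. Values of single genes are log2 RMA expression values, on which a difference of 1 is a doubling, and the level of 1 probeset was not compared with that of another.

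A TRIM protein carries a RING domain, which transfers ubiquitin, followed by B-box domains and a coiled coil, and most members end in a domain that recognises the target, often a PRY-SPRY domain. Many members with a PRY-SPRY domain are induced by interferon in macrophages and other cells and act on viruses or on the pathways that sense them. Other members have roles in neurons, where they act on axons, synapses and the cytoskeleton, and still others in muscle, germ cells or chromatin.

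Aldara treatment left 14 of the 66 TRIM genes (21.2%) higher in the brain than control cream did and 13 (19.7%) were lower at an adjusted p under 0.05 (limma, Benjamini-Hochberg over all 23410 probesets tested). Over all probesets tested, 12.4% were higher and 21% were lower, so that the share of lower TRIM genes was near that of the array as a whole. The 2 directions differed in size. Of the 14 higher genes, 10 (15.2% of the family) rose by at least 1.5-fold, against 3.05% of all probesets. At least 2-fold, 6 rose, against 373 of all 23410 probesets. None of the 13 lower genes fell by as much as 1.2-fold, and their decreases ran from 1.08-fold to 1.199-fold. Small decreases were also usual over the array, where 494 of the 4926 lower probesets fell by at least 1.2-fold. The 39 genes that did not pass the test had differences between -0.13 and 0.05 on the log2 scale, and the widest of their 95% intervals reached a change of 1.14-fold upward and to 0.827 of the control level downward. The median log2 difference over the family was -0.05, against -0.04 over all probesets tested.

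**Figure D1:**
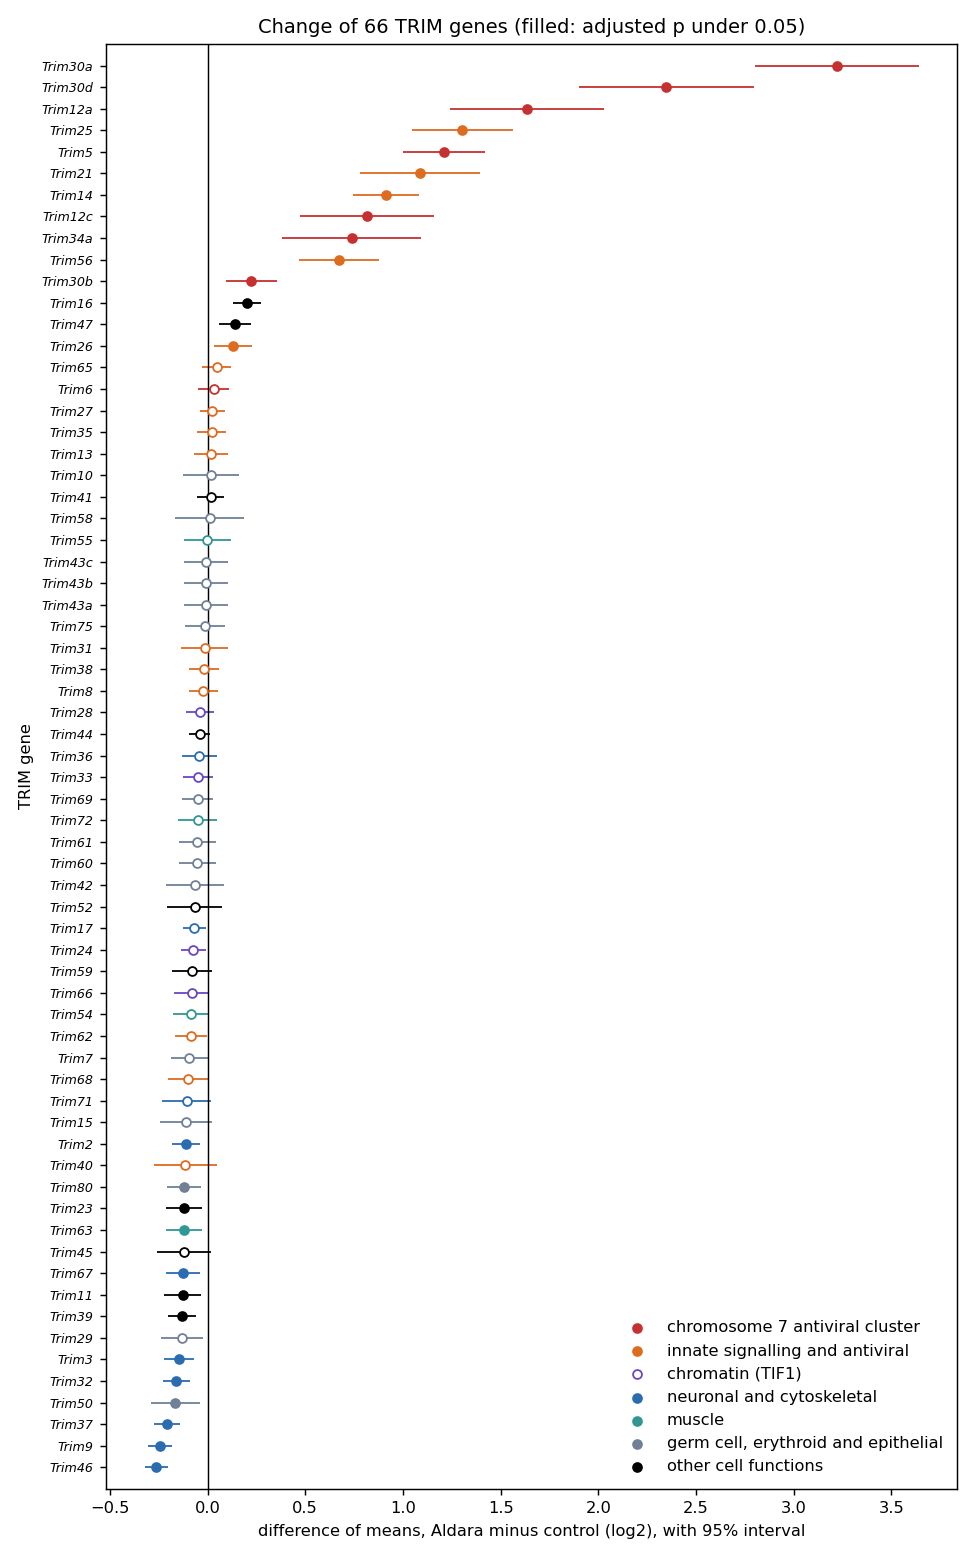
Difference between the Aldara and control means (log2, horizontal axis) for each of the 66 TRIM genes, ordered by size, with 95% intervals and colours for the group of known roles. Filled points passed an adjusted p of 0.05 and open points did not. The 10 largest increases, all from the chromosome 7 cluster or the innate signalling group, lie apart from the rest of the family, whose differences were all between -0.26 and 0.22.

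The groups did not overlap in any of the 14 higher genes, and they did not overlap in 6 genes with lower values in Aldara brains (9.09% of the family). Among all probesets 10.5% did not overlap with Aldara higher and 15.3% with Aldara lower. For each gene whose groups did not overlap, the exact two-sided permutation test gave p = 0.0079, the smallest that the 252 ways of dividing 10 mice into 5 and 5 allow.

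Most of the large increases came from a cluster of TRIM genes that lie side by side on chromosome 7, where genes related to primate TRIM5 and TRIM34 have multiplied in the mouse. Of its 8 measured members, 7 (87.5%) rose, against 12.4% of all probesets, and none fell. By at least 1.5-fold 6 (75%) rose, against 3.05% of all probesets. The probeset read for Trim5 also names Trim12a and Trim12c, so Trim5 is not a separate reading. Among members with a probeset that names 1 gene, 5 of 6 rose. The median log2 difference of the cluster was 1.01. This group, like the other role groups and gene lists below, was chosen with earlier results of these data known. The promoters of 6 of these genes carry a motif that interferon-activated factors are known to bind, and the sequences are shown here because they fall into sets of near-identical copies, Trim30a with Trim30d and Trim5 with Trim12a and Trim12c, that differ from each other. The interferon-stimulated response element (ISRE) was searched on both strands in the 300 bases from 250 before to 50 after each annotated start, using RefSeq sequences of build GRCm38.p6. Each line gives 30 bases in the direction of the gene, 5′ to 3′, with the matched motif in capitals. Only the Trim21 match reads in the direction of the gene, and the others lie on the opposite strand.

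Trim30a: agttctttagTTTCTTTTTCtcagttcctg
Trim30d: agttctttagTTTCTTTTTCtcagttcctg
Trim5: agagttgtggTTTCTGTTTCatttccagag
Trim12a: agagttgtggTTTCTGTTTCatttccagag
Trim12c: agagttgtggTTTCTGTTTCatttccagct
Trim34a: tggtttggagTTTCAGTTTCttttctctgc
Trim21: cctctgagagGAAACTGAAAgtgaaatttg

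These windows lie at chr7:104465210-104465239 for Trim30a, chr7:104507871-104507900 for Trim30d, chr7:104288136-104288165 for Trim5, chr7:104315466-104315495 for Trim12a and chr7:104353359-104353388 for Trim12c, all of them on the minus strand. Those of Trim34a, at chr7:104244457-104244486 on the plus strand, and Trim21, at chr7:102565450-102565479 on the minus strand, follow the same layout. Trim30a and Trim30d were identical at 30 of 30 bases, as were Trim5 and Trim12a, and Trim12c matched that pair at 28 of 30. Between these sets the windows matched at only 14 to 15 of 30 bases with a different core, and Trim34a matched Trim5 at 18 of 30. A second annotated start of Trim30a carried the same core in a window that matched the first at 26 of 30 bases, and Trim21 held a second match that overlaps the first.

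The motif was present in 3.44% of the 32851 promoters in the table and in 3.99% of its 27025 genes. Of the 51 TRIM members with a promoter there, 9 (17.6%) held it. It was found in 7 of the 9 members that rose by at least 1.5-fold and have an entry. These were Trim5, Trim12a, Trim12c, Trim21, Trim30a, Trim30d and Trim34a, and not Trim25 or Trim56. Trim5 counts as risen only through a probeset that also names Trim12a and Trim12c. Among the other members the motif was found in Trim26, which was higher by less than 1.5-fold, in Trim2, which was lower, and in 0 of the 29 that did not pass the test. The motif was searched with the expression changes of these genes known, and the cluster copies share sequence, so these are counts of letters and not independent sites. A gamma-activated site, searched in the same way, was in 8.30% of promoters and 9.55% of genes. It was in 5 of the 51 TRIM members (9.8%) and in 0 of the 9.

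Trim30a, an interferon-induced ubiquitin ligase known to restrain NF-κB signalling by removing TAB2 and TAB3, was the most changed member. Its values were 7.39, 7.39, 7.76, 7.20 and 7.44 in control mice 1 to 5 and 10.50, 10.19, 10.78, 10.38 and 11.41 in Aldara mice 1 to 5. Every Aldara mouse stood more than 2 log2 units above every control mouse, and the fifth Aldara mouse was the highest. The increase was 3.22 ± 0.19 (SE) on the log2 scale, 9.31-fold with a 95% interval of 6.96 to 12.5, at an adjusted p of 1.48e-07.

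Trim30d, its neighbour and close copy, which is known to restrict tick-borne flaviviruses, rose by 2.35 ± 0.21 (SE, 5.09-fold, interval 3.73 to 6.94, adjusted p = 3.85e-06). Control mice had 6.19, 6.12, 6.44, 6.00 and 6.23 and Aldara mice 8.25, 8.16, 8.66, 8.22 and 9.42. The control mouse with the highest value, replicate 3, was the same as for Trim30a, as was the highest Aldara mouse. Trim30b, read from a probeset that also names the neighbouring Gm38525, had 6.00, 6.06, 6.04, 6.14 and 6.13 in control and 6.18, 6.45, 6.18, 6.24 and 6.46 in Aldara mice. Its increase of 0.22 ± 0.06 (SE, 1.17-fold, adjusted p = 0.0134) was the smallest that passed in the cluster.

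Trim12a and Trim12c are mouse relatives of primate TRIM5, a factor that recognises retroviral capsids. Trim12a had 6.64, 6.68, 7.06, 6.54 and 7.07 in control mice and 8.26, 7.92, 8.52, 8.42 and 9.05 in Aldara mice, an increase of 1.63 ± 0.18 (SE, 3.10-fold, interval 2.36 to 4.07, adjusted p = 2.9e-05). Trim12c had 5.86, 5.92, 6.21, 5.96 and 6.14 in control mice and 6.83, 6.51, 6.82, 6.51 and 7.48 in Aldara mice, an increase of 0.81 ± 0.16 (SE, 1.76-fold, interval 1.39 to 2.23, adjusted p = 0.00178). In both genes the groups were apart, and the gap between the lowest Aldara and the highest control mouse was narrower for Trim12c.

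The probeset read for Trim5 also names Trim12a and Trim12c, so its values cannot be given to Trim5 alone. It measured 6.86, 6.995, 7.04, 6.91 and 6.87 in control mice and 8.07, 7.89, 8.14, 8.07 and 8.54 in Aldara mice, and rose by 1.21 ± 0.10 (SE, 2.31-fold, interval 2.00 to 2.68, adjusted p = 1.88e-06). A further probeset, shared by Trim5 and Trim12c and not used in the counts, was higher by 0.79 ± 0.07 (SE), with no overlap between groups. Near-identical copies can hybridise to the same probes, so the separate changes of Trim5, Trim12a and Trim12c, and of the Trim30 copies, remain uncertain.

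Trim34a, whose primate relative also binds capsids, had 7.26, 6.80, 7.20, 7.35 and 7.04 in control mice and 7.47, 7.76, 7.88, 7.74 and 8.49 in Aldara mice. The lowest Aldara mouse, replicate 1, lay only just above the highest control mouse, replicate 4. The increase was 0.74 ± 0.16 (SE, 1.67-fold, interval 1.30 to 2.13, adjusted p = 0.00411). Trim6, at the edge of the cluster, is known to build free ubiquitin chains that activate the kinase IKKε in interferon signalling. It measured 5.94, 6.05, 6.00, 5.98 and 6.03 in control and 6.05, 6.00, 6.14, 6.03 and 5.95 in Aldara mice, overlapping groups with a difference of 0.03 ± 0.04 (SE, adjusted p = 0.55).

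In chromosome order the genes run Trim6, Trim34a, Trim5, Trim12a, Trim34b, Trim12c, Gm38525, Trim30b, Trim30c, Trim30a and Trim30d in the GRCm38.p6 gene table, and Trim34b and Trim30c had no probeset named for them. The genes on either side encode an olfactomedin-like protein (Olfm5) and olfactory receptors. None of the 6 nearest flanking genes with a probeset passed the test, and their log2 differences lay between -0.08 and 0.04.

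**Figure D2:**
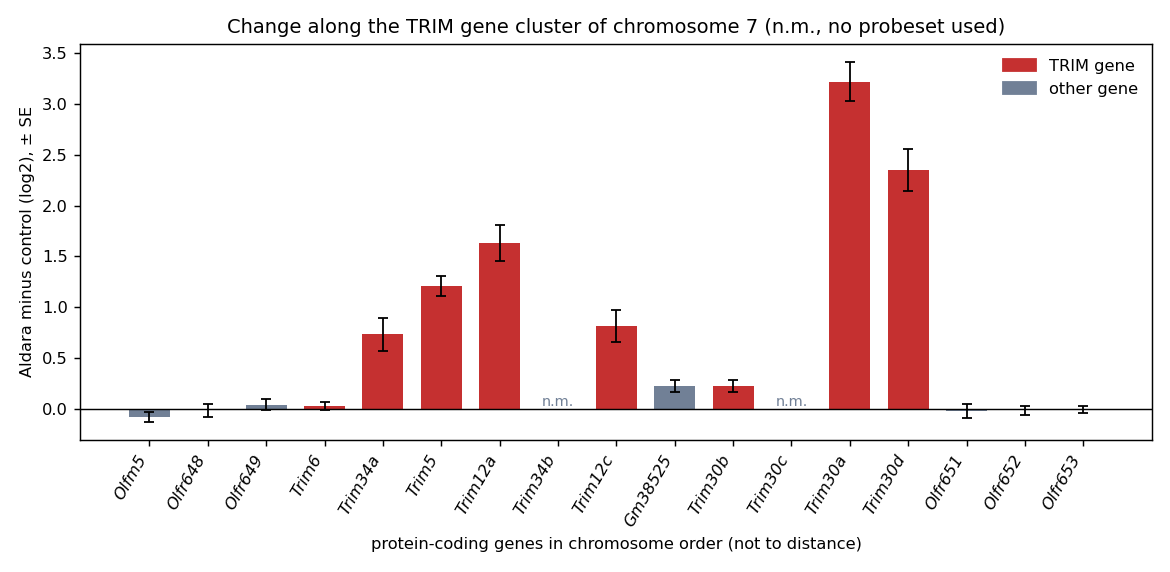
Log2 difference between Aldara and control means, with its standard error, for the genes of the chromosome 7 TRIM cluster and 3 flanking genes on each side, in chromosome order and not to distance (n.m., no probeset used). Gm38525 and Trim30b share a probeset and so show the same bar. The increases ran from Trim34a to Trim30d, with the tallest bars at Trim30a (3.22) and Trim30d (2.35), while Trim6 and the flanking genes were near 0.

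Outside the cluster, 15 members have known roles in innate immune signalling or antiviral defence. Of these, 5 (33.3%) rose, against 12.4% of all probesets, and none fell, against 21%. Of the 5, 4 rose by at least 1.5-fold (26.7% of the group, against 3.05% of all probesets). The median of this group was 0.02, since its other 10 members did not pass the test and lay between -0.11 and 0.05.

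Trim25 attaches the ubiquitin chains that activate the viral RNA sensor RIG-I. It rose from 6.78, 6.67, 7.01, 6.87 and 6.94 in control mice to 8.20, 7.88, 8.07, 7.999 and 8.62 in Aldara mice. The groups lay well apart, with an increase of 1.30 ± 0.12 (SE, 2.47-fold, interval 2.06 to 2.95, adjusted p = 5.57e-06). Ddx58, the gene of RIG-I, rose in the same brains by 2.51 ± 0.19 (SE, 5.70-fold, adjusted p = 9.33e-07).

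Trim21 is a cytosolic receptor for antibodies that enter cells bound to a virus. It had 6.98, 6.74, 7.02, 7.09 and 6.92 in control mice and 7.97, 7.90, 7.82, 7.83 and 8.66 in Aldara mice. The fifth Aldara mouse stood apart from the other Aldara mice, all of which were still above every control mouse. The increase was 1.09 ± 0.14 (SE, 2.12-fold, interval 1.72 to 2.62, adjusted p = 0.000106), and without that mouse it was 0.93.

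Trim14, a family member without a RING domain that joins the mitochondrial adaptor MAVS, was tighter. Control mice had 7.20, 7.24, 6.98, 7.26 and 7.09 and Aldara mice 7.94, 7.98, 8.08, 7.995 and 8.34, an increase of 0.91 ± 0.08 (SE, 1.88-fold, interval 1.68 to 2.11, adjusted p = 2.83e-06). Trim56, which takes part in signalling from STING and Toll-like receptor 3, had 8.37, 8.28, 8.35, 8.41 and 8.28 in control mice and 8.88, 8.90, 9.0, 8.85 and 9.43 in Aldara mice, an increase of 0.67 ± 0.09 (SE, 1.59-fold, interval 1.38 to 1.84, adjusted p = 0.000199). The fifth Aldara mouse was again the highest in both genes.

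The fifth member of the group to pass was Trim26, known to act on IRF3 and its kinases, at 1.09-fold (adjusted p = 0.0419). This call was lost in 5 of 9 other settings and without some of the mice, with adjusted p up to 0.122 across the settings. The members with the smallest p among those that did not pass were Trim62 at -0.09, Trim68 at -0.10, Trim40 at -0.11 and Trim65 at 0.05, so that the group held no decrease that passed the test.

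**Figure D3:**
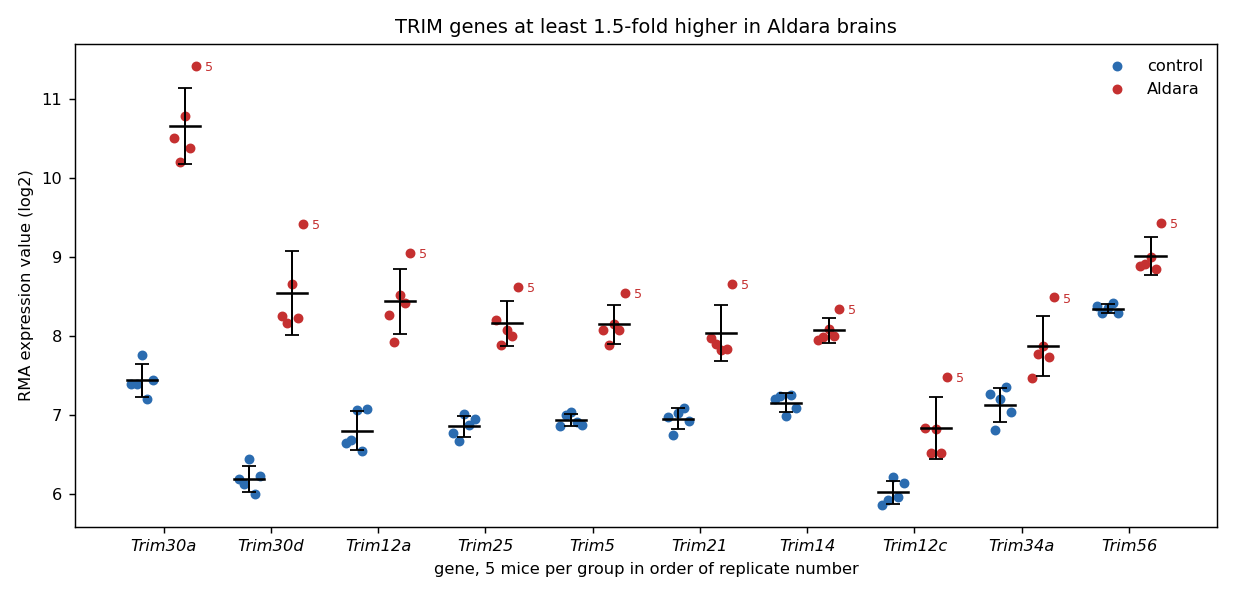
Log2 RMA expression value in each mouse for the 10 TRIM genes at least 1.5-fold higher in Aldara brains (control blue, Aldara red, 5 mice each, with mean and SD as black bars), with the fifth Aldara mouse marked 5. In each gene the red points are all higher than the blue ones, and the fifth Aldara mouse is the highest in 10 of 10. Heights of different genes cannot be compared, since each has its own probes.

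The fifth Aldara mouse had the highest value of the group in all 10 of these genes. As a mean over the 10 genes, differences from the control mean ran from 1.13 to 1.397 in the other 4 Aldara mice and reached 1.96 in the fifth, while control mice lay between -0.10 and 0.13. Without the fifth mouse all 10 genes still passed the test, with log2 differences from 0.57 (Trim56) to 3.03 (Trim30a).

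A list of 23 measured genes of the type I interferon response showed the same order in that mouse. All 23 were higher in Aldara brains, against 12.4% of all probesets, with a median of 1.97. The mean difference of the 23 from control was 1.74 to 2.12 in the other Aldara mice and 2.86 in the fifth. Of 9 genes that mark macrophages and monocytes, all 9 were also higher, with a median of 1.95. Their mean difference was 2.07 to 2.39 in the other 4 Aldara mice, 2.41 in the fifth and -0.04 to 0.05 in control mice. This mean joins markers that went both ways in the fifth mouse. The monocyte markers Ccr2 (7.47 against at most 6.86 in the other Aldara mice) and Plac8 (7.71 against at most 6.65) were far higher there, while Lyz2 (11.22 against at least 11.45) and Adgre1 (10.45 against at least 10.57) were the lowest of the Aldara group. Markers of some other cells also rose, with 5 of 5 for NK cells, 3 of 3 for endothelium, 3 of 4 for astrocytes and 3 of 5 for microglia. The astrocyte marker Slc1a3 (-0.25) and the microglia marker Siglech (-0.77) fell, and P2ry12 of microglia did not pass. For T cells 3 of 6 rose and Cd4 fell (-0.32). For B cells 1 of 3 rose and for neutrophils 1 of 5. For oligodendrocytes 1 of 3 rose and Mbp fell (-0.21). Over all probesets tested, 12.4% were higher and 21% were lower. The NK marker mean was 0.67 to 0.83 in the other Aldara mice and 1.05 in the fifth. Macrophages and monocytes can express the interferon-induced TRIM genes, and the part of these or the other cells in the increases was not tested. In whole tissue, more cells of a type and more RNA per cell cannot be told apart, and the same holds for fewer and less.

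**Figure D4:**
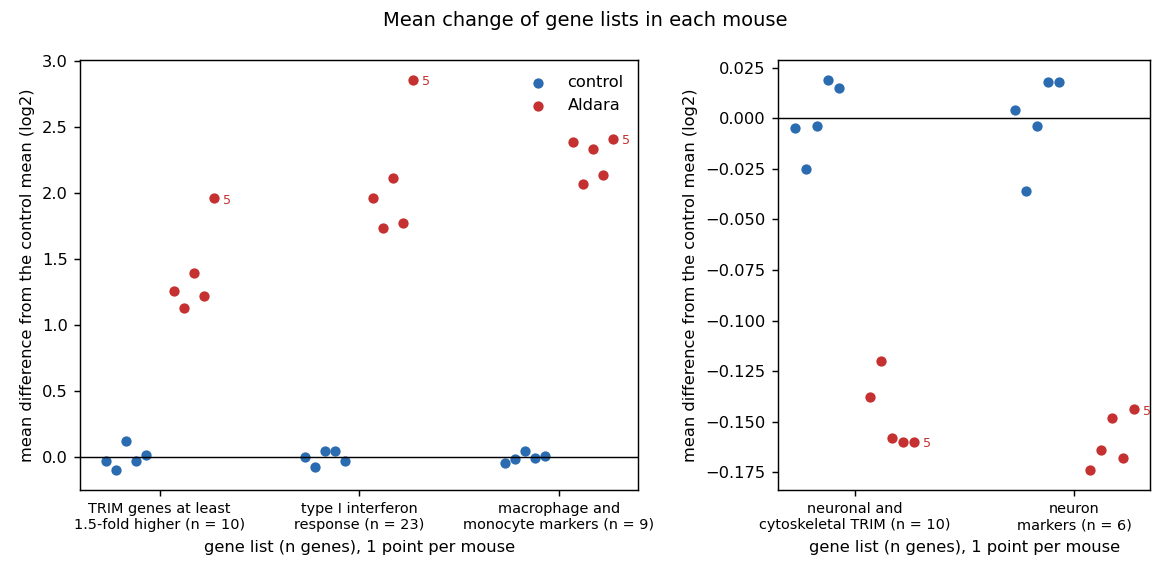
Mean log2 difference from the control mean in each mouse (control blue, Aldara red) for 5 gene lists, with the fifth Aldara mouse marked 5. Left, the 10 TRIM genes that rose by at least 1.5-fold, 23 type I interferon response genes and 9 macrophage and monocyte markers; right, on a finer scale, the 10 neuronal and cytoskeletal TRIM genes and 6 neuron markers. The fifth Aldara mouse is far above the others in the first pair of lists (1.96 and 2.86) and close to them in the mean of the macrophage and monocyte markers (2.41), whose single members differ.

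A total of 22 genes that TRIM proteins are known to act on or with, such as sensors, adaptors, kinases and ubiquitin-conjugating enzymes, were measured as signalling partners. Of these, 12 (54.5%) were higher, against 12.4% of all probesets, and none was lower, against 21%. Besides Ddx58 the largest increases were in Irf7, a transcription factor of the interferon response, at 3.77 ± 0.15 (SE), Ube2l6, the conjugating enzyme of the ubiquitin-like protein ISG15, at 2.04 ± 0.21, and Ifih1, the RNA sensor MDA5, at 1.96 ± 0.20 on the log2 scale. Fcgr1, an antibody receptor on the surface of macrophages, rose by 1.66 ± 0.10, and Sting1, the adaptor that Trim56 acts on, by 1.28 ± 0.05. Irf7 also belongs to the interferon list and Fcgr1 to the macrophage markers.

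The RNA of the targets of Trim30a changed little beside that of Trim30a itself. Tab2 was higher by 0.11 ± 0.02 (SE, 1.08-fold, adjusted p = 0.00429), and Tab3 had a difference of -0.01 ± 0.03 (adjusted p = 0.886). Trim30a is known to remove the TAB2 and TAB3 proteins, which an RNA array does not measure, so its action on them was not tested. Mavs, at 1.11-fold, and Tbk1, a kinase downstream of it, at 1.09-fold, were higher, and Irf3, which Tbk1 activates, differed by 0.03 ± 0.04 (adjusted p = 0.591).

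Among 12 relatives with TRIM domains but other names, 2 (16.7%) rose and 3 (25%) fell, shares near the 12.4% and 21% of all probesets. Pml, which forms nuclear bodies and is also called TRIM19, was 1.41-fold higher (adjusted p = 0.00182), and Rnf135, a second ubiquitin ligase of RIG-I, was 1.26-fold higher (adjusted p = 0.00133). The relatives that fell were Fsd1 (-0.15), Cmya5 (-0.11) and Btn2a2 (-0.20 on the log2 scale). Mid1 and Mid2, which bind microtubules, did not pass, at 0.21 ± 0.10 and -0.07 ± 0.03 (SE).

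The TRIM genes with roles in neurons and the cytoskeleton moved the other way. Of 10 such members, 7 (70%) fell, against 21% of all probesets, none rose, and the median log2 difference was -0.13. This group was chosen with earlier results of these data known, and it includes Trim37, a ligase of peroxisomes and centrioles. Its share is therefore a description and not a test. The groups did not overlap in 5 of the 10 (50%), against 15.3% of all probesets with Aldara lower. Decreases were commoner among the brighter probesets, those at or above the median level, of which 35.1% were lower. Those probesets include 8 of these 10 genes. All decreases were small, at most 1.199-fold.

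Trim46, which bundles microtubules at the start of the axon, fell from 9.55, 9.57, 9.499, 9.60 and 9.59 in control mice to 9.27, 9.32, 9.30, 9.31 and 9.30 in Aldara mice. The Aldara values lay close together, and all of them were below the lowest control mouse. The difference was -0.26 ± 0.03 (SE), a decrease of 1.199-fold at an adjusted p of 1.8e-05.

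Trim9, a ligase of neurons that takes part in axon branching in response to netrin, had 11.29, 11.31, 11.32, 11.27 and 11.31 in control mice and 11.08, 11.10, 11.07, 11.02 and 11.01 in Aldara mice. The difference was -0.24 ± 0.03 (SE, 1.18-fold lower, adjusted p = 3.35e-05), with no overlap. Trim37, a ligase of peroxisomes and centrioles, had 11.88, 11.86, 11.82, 11.89 and 11.84 in control and 11.69, 11.71, 11.60, 11.64 and 11.62 in Aldara mice, a difference of -0.21 ± 0.03 (SE, 1.15-fold lower, adjusted p = 0.000237). Here too the highest Aldara mouse was below the lowest control mouse.

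Also lower in this group were Trim32, known in neural progenitors and muscle, at -0.16 ± 0.03 (SE, adjusted p = 0.00198), and Trim3, a ligase of the synapse, at -0.15 ± 0.04 (adjusted p = 0.00752). Trim67, the closest relative of Trim9, at -0.12, and Trim2, which acts on neurofilaments, at -0.11, passed with smaller differences. With each of the 10 mice left out in turn, Trim67 passed in 4 of 10 fits and Trim2 in 8 of 10. Trim17 did not pass, at -0.07 (adjusted p = 0.0741), although its groups did not overlap, and its probeset also names H2aw. Trim36 and Trim71 did not pass.

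All 6 neuron markers measured were also lower in Aldara brains (against 21% of all probesets), with a median of -0.18. Their mean difference from control ran from -0.17 to -0.14 in Aldara mice and from -0.04 to 0.02 in control mice, and for the 10 neuronal and cytoskeletal TRIM genes it ran from -0.16 to -0.12 and from -0.03 to 0.02. The part of the neuron share of the tissue in these decreases was not tested. All probesets tested had a median difference of -0.04, and the Aldara arrays were also shifted so that this median was 0. This left 5 of the 10 TRIM genes and 4 of the 6 neuron markers lower, beside 11.8% of all probesets. Those 5 TRIM genes were Trim46, Trim9, Trim37, Trim32 and Trim3, and no other TRIM gene was lower in that setting.

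**Figure D5:**
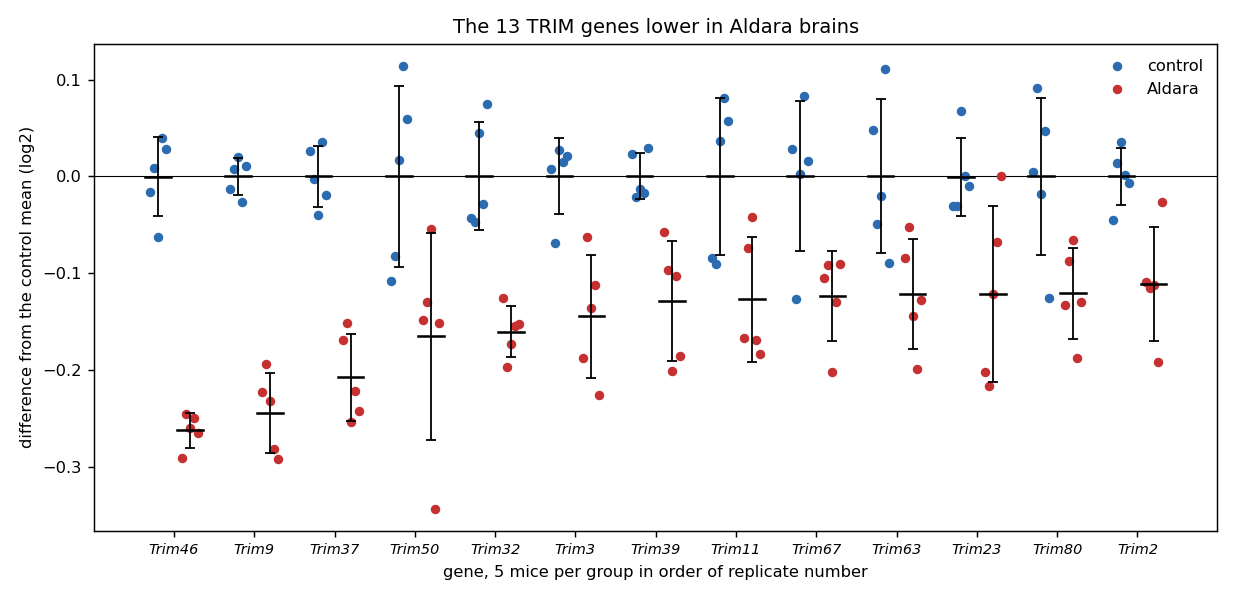
Difference from the control mean (log2) in each mouse for the 13 TRIM genes lower in Aldara brains (control blue, Aldara red, 5 mice each, with mean and SD as black bars). The groups are separate in Trim46, Trim9, Trim37, Trim32 and Trim39 and overlap in the other 8, and the scale is much finer than that of the increases.

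The other lower genes belonged to several role groups. Trim50, a ligase of gastric epithelium, was among the 4 largest decreases, with 6.53, 6.56, 6.65, 6.75 and 6.70 in control and 6.49, 6.51, 6.58, 6.29 and 6.49 in Aldara mice. Its groups overlapped, and its difference of -0.17 ± 0.06 (SE, adjusted p = 0.0424) passed in only 3 of the 10 fits that left out 1 mouse and in 3 of 9 other settings. With Trim80 (-0.12) it made 2 of 15 genes of germ cells, erythroid cells and epithelium that were lower, and Trim63, the muscle ligase MuRF1, at -0.12, was the only one of 4 muscle genes. These shares, 13.3% and 25%, stand beside 21% of all probesets, and Trim80 and Trim63 each passed in 3 of the 10 fits. Among 10 genes of other functions, Trim39, at -0.13, Trim11, at -0.13, and Trim23, at -0.12, were lower (30%, against 21%). Of these, only Trim39 had groups that did not overlap. Trim39 passed in all 10 of the fits that left out 1 mouse, Trim11 in 4 and Trim23 in 2.

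Trim16 and Trim47 were the only members outside the innate and cluster groups to rise. Trim16, which lacks a RING domain and takes part in clearing damaged membranes, was 1.15-fold higher (adjusted p = 0.000587), and Trim47 was 1.102-fold higher (adjusted p = 0.0139). Both were apart from control in all 5 Aldara mice. The 4 TIF1 genes, Trim24, Trim28, Trim33 and Trim66, which have roles in chromatin, did not pass the test, with differences between -0.08 and -0.04.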

How the data were processed

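Labelled sense-strand cDNA made from the RNA of 10 perfused mouse brains had been hybridised to 1 GeneChip Mouse Gene 1.0 ST array each. The deposited log2 expression values had been made by the authors with RMA (RMA 16 in the methods) in GeneSpring GX, which corrects background, quantile-normalises arrays and summarises probes; the GeneSpring version and the library file are not given in the sources used here. RMA compresses large ratios, and detection above background could not be judged, so a gene that did not change may not have been measurable.

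Groups were taken from the sample titles. Of 28856 probesets, 21789 had 1 symbol in the platform annotation, 1621 several and 5446 none. The 23410 with a symbol were fitted with limma 3.58.1 in R 4.3.3 (lmFit and eBayes, no covariate) and adjusted by Benjamini-Hochberg, with a threshold of 0.05. All 66 symbols matched a current gene table by Entrez identifier. The pipeline was tested on simulated data. Mice were separate biological replicates by their titles, and no 2 arrays were identical. The number of arrays limits the precision, and array values carry no read depth.

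Full values are given for members past the threshold with at least a 1.5-fold change and for the 4 largest decreases; of each role group up to 4 further members with the smallest p are named, and others by count and range. Trim30b, Trim6 and the promoter motifs were added after their values were seen. The members, role groups and gene lists were chosen with earlier results of these data known, so no test over a list was made.

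Alternatives were 3 other scalings, 3 other choices of probesets, another variance model, the unpaired t-test of the methods, array weights, a replicate block and leaving out each mouse.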

Additional observations from a re-analysis of the deposited data

Results flagged for a closer look

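For the 27 TRIM genes that passed the test, the highest and the lowest mouse of each group of 5 was compared with its nearest neighbour. In 3 of the 54 groups the gap took up more of the group's range than Dixon's 95% critical value of 0.71 allows, where chance gives about 1 in 20. In Trim21 the fifth Aldara mouse, at 8.65, lay above the next at 7.97, a gap of 0.822 of the range. In Trim56 the same mouse, at 9.43, lay above the next at 9.0, a gap of 0.736. In Trim3 the second control mouse, at 10.37, lay below the next at 10.44, a gap of 0.804 of the range.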

How the results depend on the processing

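The count of 14 higher TRIM genes was 12 to 14 in the other settings except with the brighter probesets alone, and 13 to 14 with 1 mouse left out. Of all probesets, 9.82% to 16.4% were higher in those settings and 11.3% to 12.5% with 1 mouse left out. The brighter probesets, those at or above the median level, kept 24 members, of which 2 (8.33%) were higher, beside 17.6% of all such probesets. The 10 genes that rose by at least 1.5-fold passed in every setting in which their probeset was kept. The count of 13 lower genes was less stable. It was 27 with arrays centred on a common median, 5 with the median difference set to 0 and 8 by the methods' t-test, beside 41%, 11.8% and 19.2% of all probesets. With the brighter probesets alone, 12 of 24 members (50%) were lower, beside 35.1% of all such probesets. The count of lower genes ran from 6 to 12 with 1 mouse left out, while 17.6% to 20.4% of all probesets were lower. It was 6 (9.09%) without control replicate 3, beside 18.4% of all probesets. Without control replicate 4 or Aldara replicate 4 it was 7 (10.6%), beside 18.6% and 17.8%. Without Aldara replicate 1 it was 8 (12.1%), beside 18.3%. In each fit with 1 mouse left out, the share of lower TRIM genes was below that of all probesets. No result changed direction and passed the test in the other direction. With a replicate block the counts were 14 higher (21.2%) and 9 lower (13.6%), beside 11.5% and 18.9% of all probesets. Same-numbered deviations correlated at -0.11 to 0.249, and 2 of 5 mice matched their own number best. With so few mice this cannot tell whether the numbers pair them. Averaging a gene's probesets gave no separate value, since no member had several of its own. Array signal, whose background was not used here, limits what can be said of genes that did not pass.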
